A study of Mus musculus with 6 samples.

Results

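The MYC, MAX and MXD network is described here in mouse adult fibroblasts (MAFs), as 10 genes of 43346 in the merged gene table: *Myc*, *Mycn*, *Mycl*, *Max*, *Mlx*, *Mxd1*, *Mxi1* (also called *Mxd2*), *Mxd3*, *Mxd4* and *Mnt*. All 10 were found by their gene name, and all 10 were among the 17589 genes with enough counts to be tested. The family was selected on its measured levels in the same control and senescent libraries, with the difference between them known. Levels and fold changes of the 10 genes are therefore given as a description, without a p-value.

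RNA-seq of polyadenylated RNA was made from 3 control and 3 senescent samples of primary MAFs. These cells had been grown out of the ears of adult female C57BL/6 mice. Senescent MAFs had been exposed to 20 Gy of X-rays and then cultured for weeks, and control MAFs had been sham irradiated. The paper's methods give no such culture time for control MAFs, so time in culture may also differ between the groups. Both groups were cultured at 3% oxygen, received 100 nM dexamethasone for 2 hours, a glucocorticoid used to synchronize circadian clocks, and were harvested 12 hours afterwards. The values therefore belong to 1 time point of synchronized cells, and no group without dexamethasone or with X-rays at another dose was compared. The labels number the replicates but do not say that they were separate cultures or animals, so a p-value measures the spread between these samples, which may be technical.

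MYC proteins bind DNA only as a pair with MAX, on the E-box hexamer, and such pairs activate genes of ribosome production, metabolism and growth. MXD proteins and MNT compete for MAX and, as pairs with it, recruit the SIN3 and histone deacetylase repressor complex to the same hexamer. MLX is a second hub that pairs with MXD1, MXD4, MNT and the glucose-sensing factors MONDOA and CHREBP. BMAL1 and CLOCK, the activating pair of the circadian clock, read the same hexamer. In fibroblasts, *Myc* is known as an immediate response to serum and *Mxd3* as a gene of S phase.

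The promoter windows of the members are shown first, since network proteins bind the E-box and several members hold it beside their own start. RefSeq windows for the mouse build GRCm38.p6 run from 250 bases before to 50 after each annotated start. By symbol, they were matched to 9 of the 10 members, in 11 windows because *Mxi1* has 3 starts. No window was matched to *Myc*, so its promoter was not searched. Both strands were searched for the E-box CACGTG, for the E2F-type letters TTCCCGC and TTGGCGC, and for the AP-1 letters TGANTCA. The E-box was found in windows of 4 members, against 7.15% of all 32851 windows of 27025 genes. The stretches around it are given 5′ to 3′ on the gene's strand, with the E-box in capitals.
Max, chr12:76962246-76962281, minus strand: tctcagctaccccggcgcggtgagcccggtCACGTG
Mlx, chr11:101087220-101087285, plus strand: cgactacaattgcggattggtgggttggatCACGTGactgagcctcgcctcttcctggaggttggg
Mnt, chr11:74830771-74830836, plus strand: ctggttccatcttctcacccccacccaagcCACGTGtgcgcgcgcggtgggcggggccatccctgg
Mxd4, chr5:34187894-34187959, minus strand: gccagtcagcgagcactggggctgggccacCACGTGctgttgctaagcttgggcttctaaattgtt

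Counted from the start, the first base of the E-box lay at -3 in *Max*, -40 in *Mlx*, -123 in *Mnt* and -219 in *Mxd4*. The 4 genes did not share a direction: *Max* and *Mlx* were higher and *Mnt* and *Mxd4* lower in senescent MAFs, with the values given further on. The E2F-type letters were present in windows of *Mycn*, at -182 and -167, and of *Mxd3*, at -136 on the opposite strand, against 6.81% of all windows. *Mycn* had a log2 fold change of 0.34 (SE 0.3), close to its error. The letters are shown in capitals because *Mxd3* had the widest difference among the members, a choice made with that difference known.
Mycn, chr12:12941982-12942048, minus strand: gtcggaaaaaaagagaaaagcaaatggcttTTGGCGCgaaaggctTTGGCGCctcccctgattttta
Mxd3, chr13:55329831-55329897, minus strand: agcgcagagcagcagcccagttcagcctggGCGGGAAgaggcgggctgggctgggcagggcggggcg

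The AP-1 letters were in none of the 11 windows of members, against 7.81% of all windows. A match describes letters in the window and not a bound site, and a window without a match says nothing about the factor.

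**Figure D1:**
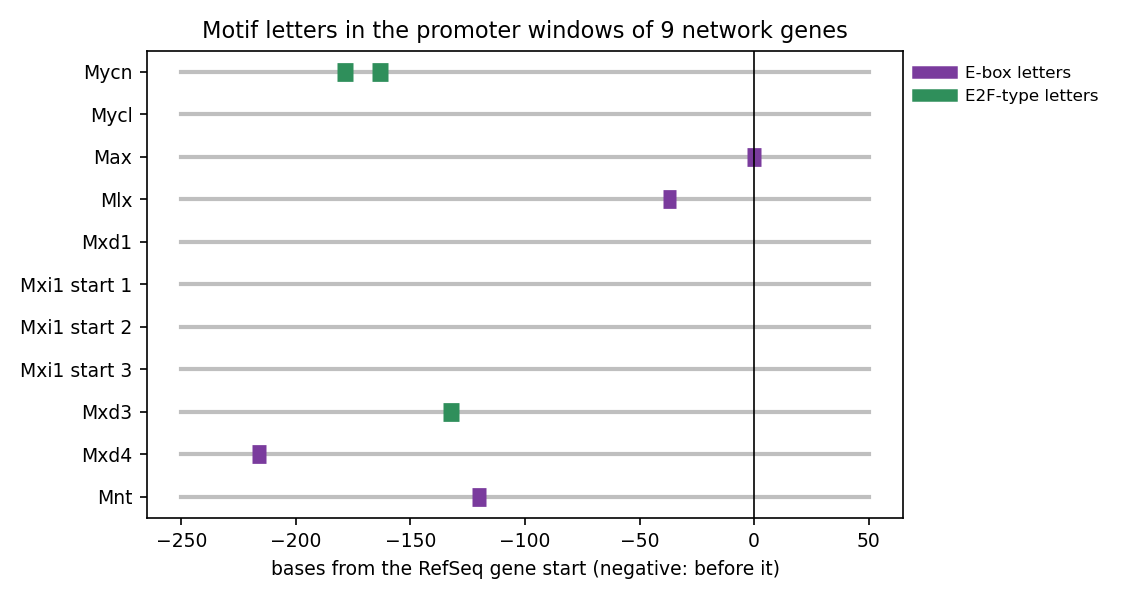
Positions of E-box and E2F-type letters in the 11 promoter windows of 9 network genes, as bases from the RefSeq start. *Myc* had no window and is not shown. Each grey line is a window of 300 bases, and boxes mark matches on either strand. The E-box of *Max* spans the start, and that of *Mxd4* lies farthest from it, at -219.

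The libraries held between 50288454 and 82229553 counts. The squared difference in counts between replicates was compared with what sampling gives, as a median over genes. It was 1.73 to 4.71 times that value for pairs of control MAFs and 2.14 times for senescent replicates 1 and 2. For senescent replicate 3 it was 14.6 times against replicate 1 and 20 times against replicate 2. Senescent replicate 3 thus stood apart, and values without it are given below. Over the 10 fibroblast markers, summed levels were 63700 to 65700 CPM in control and 47900 to 53400 CPM in senescent libraries, and 5 fell and 3 rose. Summed levels of 8 chondrocyte markers were 5000 to 5560 CPM in control and 359 to 445 CPM in senescent libraries, and all 8 fell. Markers of the other cell types were low: summed levels in control and senescent libraries were 8.3 to 9.03 and 18.8 to 21.8 CPM for macrophages, 2.55 to 2.93 and 8.16 to 8.7 for endothelium, 16.2 to 17 and 23.2 to 23.9 for keratinocytes, 15.5 to 20.9 and 15.1 to 27.8 for skeletal muscle, and 9.23 to 10.8 and 11.1 to 12.4 for Schwann cells and melanocytes. All 6 tested macrophage markers and all 5 tested endothelial markers rose. Of 5 tested keratinocyte markers 2 rose and 1 fell. For skeletal muscle 1 of 2 tested rose, and for Schwann cells and melanocytes 1 of 4 tested rose and 2 fell. Rose and fell mean called by the test described below, which called 36.2% of all tested genes higher and 34.1% lower. None of these marker genes was at 0 in every library. Their part in the network's values was not tested.

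Levels are CPM, counts scaled to a fixed total after TMM scaling, a correction for library size and composition. Control and senescent MAFs were compared over all tested genes with edgeR's quasi-likelihood test, and a gene was called at a Benjamini-Hochberg adjusted p under 0.05. Of the 10 members, 4 were called higher in senescent MAFs and 5 lower, where 36.2% of all tested genes were called higher and 34.1% lower. A fold over 2 with an unadjusted p under 0.05 was passed by 1 member in the higher direction and 2 in the lower, beside 17.8% and 12.3% of all genes. The 3 control values and 3 senescent values did not overlap in 4 members that were higher and 5 that were lower, beside 38.4% and 37.0% of all genes. Because the family was chosen on this contrast, nothing is read from these shares. In bulk RNA, fewer cells that express a gene and less RNA per cell cannot be told apart.

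**Figure D2:**
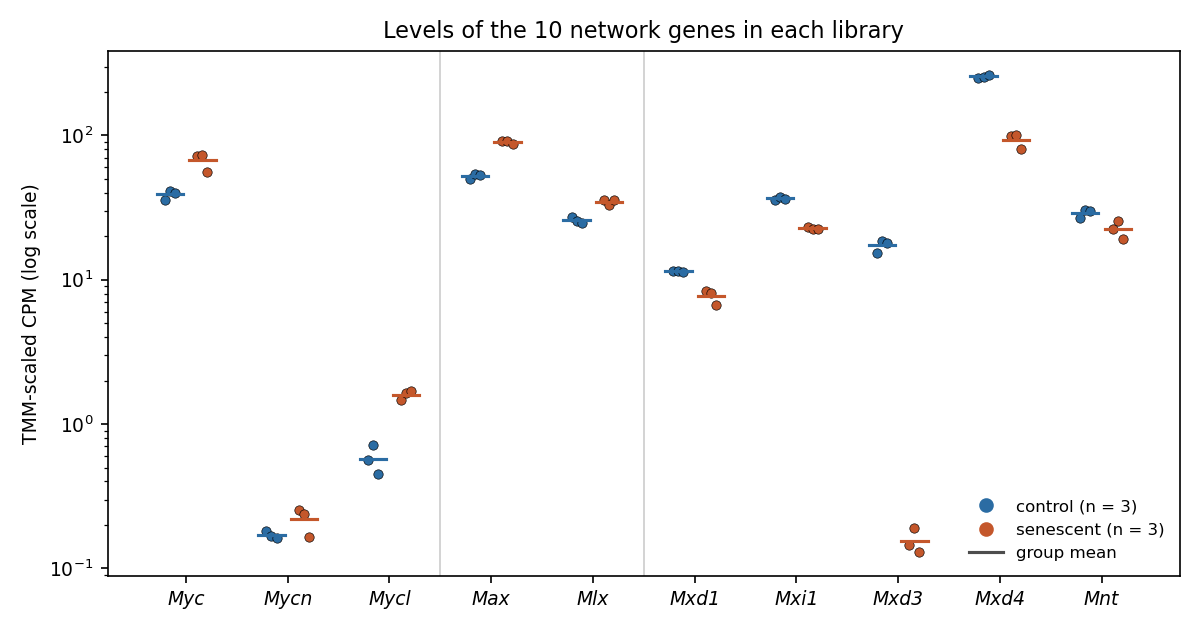
Level of each network gene in each of the 6 libraries, in TMM-scaled CPM on a log axis. Points are libraries, short lines are group means, and grey rules separate MYC genes, the hubs *Max* and *Mlx*, and the repressors. Groups overlap only for *Mycn*, and *Mxd3* drops from 15.4 to 18.4 CPM in control to 0.13 to 0.189 CPM in senescent libraries.

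The MYC genes differed widely in level, and *Myc* made up nearly all of their RNA. *Myc* (ENSMUSG00000022346, mm10, chr15:61985341-61990374, plus strand) encodes the activator that most dividing cells use. It was at 35.5, 41.4 and 40 CPM in control replicates 1, 2 and 3 and at 71.8, 73.4 and 56.1 CPM in senescent replicates 1, 2 and 3. Every senescent library was above every control library, with senescent replicate 3 the lowest of its group. The fitted log2 fold change was 0.78 (SE 0.11, n = 3 per group), from 39 ± 3.12 to 67.1 ± 9.55 CPM (mean ± SD), and it was 0.91 without senescent replicate 3.

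*Mycl* (ENSMUSG00000028654, chr4:122995652-123002485, plus strand) encodes L-MYC, a paralog best known from lung and dendritic cells. Its counts were 28, 43 and 22 in control and 81, 131 and 142 in senescent replicates 1, 2 and 3. These were levels of 0.561, 0.719 and 0.45 CPM in control and 1.46, 1.65 and 1.68 CPM in senescent MAFs. The groups did not overlap, and *Mycl* held 1% of MYC-family RNA per length in control and 1.63% in senescent MAFs. The log2 fold change was 1.46 (SE 0.19).

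*Mycn* (ENSMUSG00000037169, chr12:12936096-12941914, minus strand) encodes N-MYC, the MYC protein of neural and other embryonic progenitors. It had 9, 10 and 8 counts in control and 14, 19 and 14 counts in senescent libraries. On the CPM scale these were 0.18, 0.167 and 0.163 in control and 0.252, 0.24 and 0.166 in senescent libraries, so that senescent replicate 3 lay inside the control range. Its log2 fold change of 0.34 (SE 0.3) was close to its error. It was 0.53 without senescent replicate 3, and in neither case was a difference detectable at this depth.

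The shared partners were both higher in senescent MAFs. *Max* (ENSMUSG00000059436, chr12:76937269-76962248, minus strand) encodes the partner that MYC proteins need to bind DNA and that MXD and MNT proteins compete for. It was at 49.9, 54 and 52.9 CPM in control and at 91.8, 92 and 87.3 CPM in senescent libraries. The libraries of each group lay close together, with a coefficient of variation of 4.1% in control and 2.91% in senescent MAFs. The log2 fold change was 0.79 (SE 0.06), beside 0.78 for *Myc*.

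*Mlx* (ENSMUSG00000017801, chr11:101087277-101092207, plus strand) encodes the second hub. It was at 27.4, 25.3 and 24.8 CPM in control and at 35.8, 32.8 and 35.6 CPM in senescent libraries, without overlap. The log2 fold change was 0.43 (SE 0.07). The last 385 bases of *Mlx* overlap *Psmc3ip*, a gene of meiotic recombination on the opposite strand. The mean of *Psmc3ip* was 6.38 CPM in control MAFs against 1.46 CPM in senescent MAFs, the reverse direction. The libraries were made with a stranded mRNA kit, but the strand setting of the counting is not given in the sources used here. Whether reads from the overlap were assigned by strand is therefore not known.

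All 4 MXD repressors and *Mnt* were lower in senescent MAFs, by sizes that ranged from a log2 fold change of -0.38 to one of -6.78. *Mxd3* (ENSMUSG00000021485, chr13:55325168-55329758, minus strand) is the member whose known expression follows S phase. It had 766, 1103 and 884 counts in control and 8, 15 and 11 counts in senescent libraries. These were levels of 15.4, 18.4 and 18.1 CPM in control and 0.144, 0.189 and 0.13 CPM in senescent MAFs. The mean was 110 times higher in control MAFs, the fitted log2 fold change was -6.78 (SE 0.16), and only 2 of the 17589 tested genes had a lower one.

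*Mxd3* overlaps *Prelid1*, a gene of mitochondrial lipid transport on the opposite strand, by 105 bases. With means of 296 CPM for *Prelid1* in control MAFs and 138 CPM in senescent ones, the few *Mxd3* counts of senescent libraries stood beside a highly expressed neighbour. Proliferation markers moved in the same direction: all 22 fell, beside 34.1% of all tested genes called lower. Their median log2 fold change was -3.75, and summed levels were 3010 to 3050 CPM in control and 264 to 270 CPM in senescent libraries. *Mki67*, a protein of dividing cells, went from 589 ± 17.3 to 9.6 ± 1.48 CPM (log2 fold change -5.94, SE 0.12, adjusted p = 1.73e-08 in edgeR's quasi-likelihood test, Benjamini-Hochberg). Their part in the level of *Mxd3* was not tested.

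*Mxd4* (ENSMUSG00000037235, chr5:34173887-34187720, minus strand) encodes MAD4, a repressor of resting and differentiating cells. It was at 252, 256 and 264 CPM in control and at 98.5, 101 and 80.9 CPM in senescent libraries. It had the highest level of the network in control MAFs, and the groups were 150 CPM apart at their nearest values. The log2 fold change was -1.46 (SE 0.09), which corresponds to a level 2.75 times higher in control MAFs. Without senescent replicate 3 the log2 fold change was -1.36 (SE 0.04). The annotation places the antisense gene *Gm42846* over 1001 bases of *Mxd4*.

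*Mxi1* (ENSMUSG00000025025, chr19:53310506-53375810, plus strand) encodes MXI1, a MAX-binding repressor with several starts. It was at 35.6, 37.6 and 36.4 CPM in control and at 23.1, 22.6 and 22.3 CPM in senescent libraries. The senescent libraries had a coefficient of variation of 1.76%, the smallest among the senescent values of the 10 genes. The log2 fold change was -0.69 (SE 0.06). Counts per gene do not separate the 9 annotated transcripts, so the use of its starts was not measured here.

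*Mxd1* (ENSMUSG00000001156, chr6:86647044-86669159, minus strand) encodes MAD1, known from differentiating blood and skin cells. It was at 11.5, 11.4 and 11.3 CPM in control and at 8.39, 8.15 and 6.7 CPM in senescent libraries. Control libraries were nearly equal, and senescent replicate 3 was the lowest. The log2 fold change was -0.56 (SE 0.1), and -0.46 without senescent replicate 3.

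*Mnt* (ENSMUSG00000000282, chr11:74830920-74845725, plus strand) encodes a repressor that most cells make whether or not they divide. It was at 26.9, 30.5 and 30.1 CPM in control and at 22.6, 25.6 and 19 CPM in senescent libraries. The groups were 1.29 CPM apart at their nearest values, the narrowest gap in relation to level among the 9 members without overlap. Its log2 fold change of -0.38 (SE 0.11) was -0.26 without senescent replicate 3, and the call was lost without control replicate 2 (-0.35) or control replicate 3 (-0.36).

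**Figure D3:**
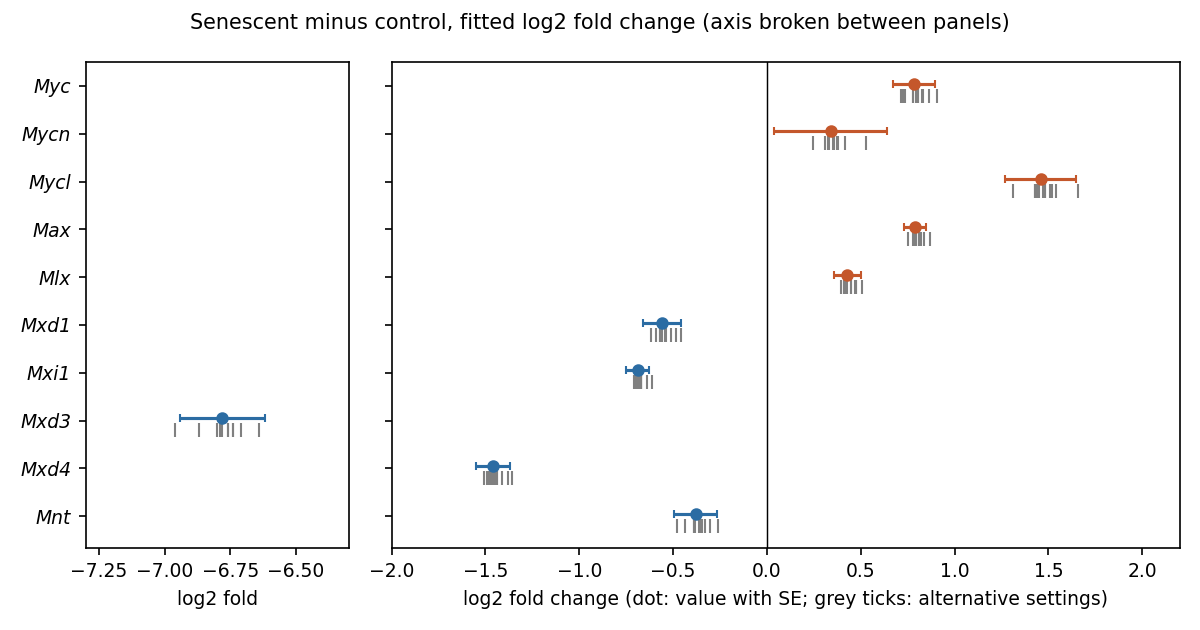
Fitted log2 fold change of each network gene, senescent minus control, with its SE as a bar, and grey ticks for the alternative settings. The axis is broken to hold *Mxd3* at -6.78, and no alternative moved a gene across 0.

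Levels of different genes were compared per kilobase of exon, with the exon length of the count table. In control MAFs the order was *Mxd4* (66.2 CPM per kb), *Max* (26.1), *Myc* (14.1), *Mlx* (12.9), *Mxd3* (8.31), *Mxi1* (6.51), *Mnt* (6.3), *Mxd1* (2.45), *Mycl* (0.143) and *Mycn* (0.0518). The neighbours *Myc* and *Mlx*, and *Mxi1* and *Mnt*, overlapped between libraries, and the others did not. In senescent MAFs *Max* came first (45.1 CPM per kb), before *Myc* (24.2), *Mxd4* (24.1), *Mlx* (17.4), *Mnt* (4.84), *Mxi1* (4.04), *Mxd1* (1.66), *Mycl* (0.396), *Mxd3* (0.0743) and *Mycn* (0.0666). Here *Myc* and *Mxd4*, and *Mxd3* and *Mycn*, were not separated. *Mxd3* moved from the fifth place to the ninth, and from percentile 64.3 to 3.09 of all tested genes per kb. Its senescent place rests on 8, 15 and 11 counts, and with at least 10 counts required in every library it was not tested.

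Summed over the family, the members' RNA per length was 138, 145 and 145 CPM per kb in control and 126, 127 and 113 CPM per kb in senescent libraries, a ratio of 0.852 between the means. The make-up differed more than the sum. The MYC genes together went from 14.3 ± 1.14 to 24.7 ± 3.45 CPM per kb, and *Myc* was 98.6% of that sum in control and 98.1% in senescent MAFs. The MXD genes and *Mnt* together went from 89.8 ± 2.69 to 34.7 ± 3.75 CPM per kb. Repressor RNA over MYC RNA was 6.67, 5.95 and 6.3 in control and 1.37, 1.39 and 1.47 in senescent libraries. The groups lay far apart on this ratio, and senescent replicate 3 was the highest of its group.

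*Max* and *Myc* differed between the groups by like amounts. The ratio of *Max* to *Myc* per length was 1.85 ± 0.08 in control and 1.88 ± 0.23 in senescent MAFs, and MYC genes over *Max* gave 0.547 ± 0.02 and 0.547 ± 0.06. Repressor RNA over *Max* was 3.45 ± 0.08 in control and 0.769 ± 0.06 in senescent MAFs. Within the repressors *Mxd4* held 73.8% in control and 69.3% in senescent MAFs. The share of *Mxd3* was 9.24% and 0.213%, and that of *Mnt*, the repressor that differed least, 7.01% and 13.9%. These sums and ratios depend on the length used. With the mean length of the GENCODE M21 transcripts, the ratio of repressor to MYC RNA was 6.46 in control and 1.54 in senescent MAFs. With the union of M21 exons, in which *Mxd4* has 8483 bases in place of 3882, it was 3.5 and 0.809. The level of *Max* beside that of *Myc* moved too: with the union of M21 exons, *Max* was at 14.5 and *Myc* at 14.3 CPM per kb in control MAFs, and at 25.1 and 24.7 in senescent MAFs.

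**Figure D4:**
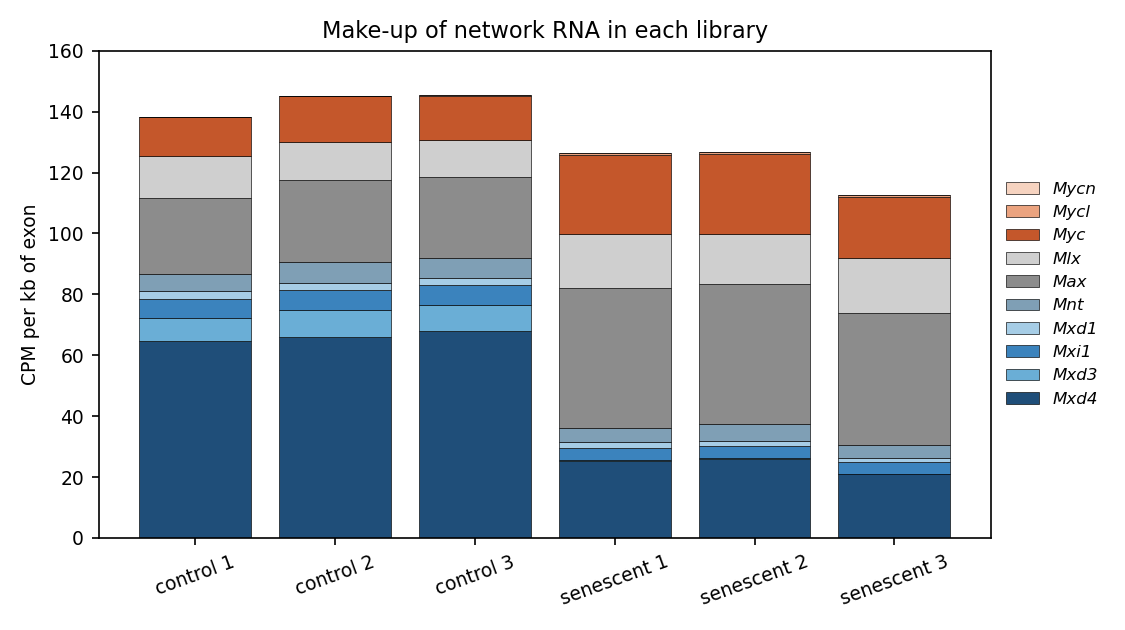
Stacked levels of the 10 network genes in each library, in CPM per kb of exon, with repressors in blue, the hubs in grey and MYC genes in orange. The blue part shrinks from 86.8 to 92 CPM per kb in control to 30.4 to 37.4 in senescent libraries, while the orange part grows from 13 to 15.2 to 20.7 to 27.

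The remaining genes of the extended network changed little. *Mga*, a MAX partner that acts with Polycomb proteins, rose from 137 ± 7.97 to 164 ± 18.2 CPM (log2 fold change 0.26, SE 0.09, adjusted p = 0.0318 in edgeR's quasi-likelihood test, Benjamini-Hochberg), and the call was lost with the replicate number as a term and without control replicate 2 or 3. *Mlxip*, which encodes MONDOA, fell from 77.3 ± 0.13 to 61.5 ± 2.04 CPM (log2 fold change -0.33, SE 0.05, adjusted p = 0.000755 by the same test). *Mlxipl*, which encodes CHREBP, was near 0 in both groups, at 0.242 ± 0.05 and 0.259 ± 0.06 CPM, and was not called (adjusted p = 0.85).

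The proteins through which MXD and MNT repress were mostly lower at the RNA level. Of 17 genes of the SIN3 and NCOR complexes, 10 fell, 1 rose and 6 were not called, beside 34.1% lower and 36.2% higher over all tested genes. The median log2 fold change was -0.33, beside 0.0085 over all tested genes. *Hdac1*, a histone deacetylase of the SIN3 complex, went from 135 ± 1.94 to 71.7 ± 0.87 CPM (log2 fold change -0.92, SE 0.05, adjusted p = 1.78e-06). *Hdac3*, the deacetylase of NCOR, fell by 0.47 on the log2 scale (adjusted p = 7.78e-05). *Sap18*, a SIN3-associated protein that also takes part in splicing, was the gene that rose (log2 fold change 0.78, adjusted p = 2.49e-05). All p-values of listed genes come from the edgeR quasi-likelihood fit and were adjusted over all tested genes by the Benjamini-Hochberg method.

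Cofactors that MYC uses to activate genes went both ways. Of 15, 7 fell, 4 rose and 4 were not called (median log2 fold change -0.35), beside 34.1% lower and 36.2% higher over all tested genes. *Smarcb1*, a subunit of the SWI/SNF remodeller, fell from 81.5 ± 3.33 to 48 ± 5.53 CPM (log2 fold change -0.76, adjusted p = 0.000142). *Hcfc1*, a chromatin adaptor, fell by 0.58 (adjusted p = 0.000163), and *Ep400*, the remodeller of the TIP60 complex, by 0.44 on the log2 scale (adjusted p = 0.000115). The genes that rose were *Ccnt1*, *Paf1*, *Wdr5* and *Ruvbl1*, with log2 fold changes of 0.51, 0.35, 0.25 and 0.21, and they were named after their values had been seen.

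A list of 17 genes was drawn up for regulators of MYC protein turnover, and it also holds the MYC-binding proteins *Mycbp* and *Bin1*. Of these 17, 7 fell, 2 rose and 8 were not called, beside 34.1% lower and 36.2% higher over all tested genes. The median log2 fold change was -0.14, and *Mycbp* is among those that fell. *Aurka*, a mitotic kinase that stabilizes MYC proteins, went from 57.2 ± 0.68 to 2.95 ± 0.23 CPM (log2 fold change -4.28, adjusted p = 1.29e-08). *Cip2a*, an inhibitor of the phosphatase PP2A, fell by 3.33 (adjusted p = 7.97e-08), and *Skp2*, a ubiquitin ligase subunit of S phase, by 1.58 on the log2 scale (adjusted p = 6.32e-07). All 3 are also genes of dividing cells. The 2 that rose were *Fbxw7*, the ligase subunit that marks phosphorylated MYC for degradation (17.5 ± 0.46 to 28 ± 0.89 CPM, adjusted p = 4.49e-05), and *Usp36*, a nucleolar deubiquitinase (37.6 ± 1.54 to 45.1 ± 4.62 CPM, adjusted p = 0.0257), both named after their values had been seen. Without senescent replicate 3, 5 genes of this list were called higher. Without any 1 of the 3 control libraries or of senescent replicates 1 and 2, 1 was. MYC protein was not measured here.

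Known MYC targets were described in 3 lists, beside 36.2% of all tested genes called higher and 34.1% called lower. In the list of ribosome production and the nucleolus, 29 of 38 genes rose, 3 fell and 6 were not called, with a median log2 fold change of 0.63. *Ddx21*, a nucleolar helicase of rRNA processing, went from 123 ± 4.72 to 290 ± 14.8 CPM (log2 fold change 1.24, adjusted p = 1.11e-06). *Wdr12*, an assembly factor of the large subunit, rose by 1.22 on the log2 scale (adjusted p = 3.17e-06), and *Las1l*, which processes a spacer of the rRNA precursor, by 1.00 (adjusted p = 3.19e-06). The 3 that fell were *Ubtf* (log2 fold change -0.93, adjusted p = 4.17e-05), *Tcof1* (-0.90, adjusted p = 0.00126) and *Polr1c* (-0.64, adjusted p = 0.000576), which were named after their values had been seen. *Ubtf* and *Tcof1* are known for transcription of rRNA genes, and *Polr1c* encodes a subunit of RNA polymerases I and III.

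In the list of nucleotide, polyamine and energy metabolism, 16 of 30 genes fell, 9 rose and 5 were not called (median log2 fold change -0.32). *Pdk1*, which restrains the entry of pyruvate into mitochondria, went from 155 ± 8.55 to 61.1 ± 3.26 CPM (log2 fold change -1.34, adjusted p = 1.22e-06). *Hk2*, the first enzyme of glycolysis, went from 34.7 ± 0.53 to 63 ± 1.86 CPM (log2 fold change 0.86, adjusted p = 4.42e-06), and *Ctps*, which makes CTP, from 132 ± 5.96 to 231 ± 12.4 CPM (log2 fold change 0.81, adjusted p = 1.46e-05). In the list of translation factors and chaperones, 9 of 16 rose and the other 7 were not called (median log2 fold change 0.22). *Eef1e1*, a scaffold protein of the tRNA synthetase complex, went from 17.7 ± 0.38 to 49.4 ± 7.21 CPM (log2 fold change 1.48, adjusted p = 8.51e-06). *Prmt3*, a methyltransferase of ribosomal protein S2, and *Hspd1*, the mitochondrial chaperonin, rose by 0.79 and 0.70 on the log2 scale (adjusted p = 1.98e-05 and 0.000237).

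Of 11 genes that MYC is known to repress, 6 rose, 4 fell and 1 was not called (median log2 fold change 0.83). The shares over all tested genes were 36.2% higher and 34.1% lower. *Cdkn1a*, the cell cycle inhibitor p21 and a target of p53, went from 123 ± 2.01 to 619 ± 16.3 CPM (log2 fold change 2.33, adjusted p = 2.54e-08). *Gadd45a*, a stress gene that is also a target of p53, went from 10.3 ± 0.38 to 53.4 ± 2 CPM (log2 fold change 2.38, adjusted p = 5.93e-08). In the other direction, *Gas1*, a growth arrest gene, fell from 227 ± 2.72 to 20.6 ± 2.19 CPM (log2 fold change -3.47, adjusted p = 3.6e-08). The others that fell were *Cdkn1b* (-1.77), *Cebpa* (-0.91) and *Ndrg2* (-0.14), named after their values had been seen. The call of *Ndrg2* (adjusted p = 0.046) was lost under every alternative that kept the adjusted p as its limit, except without senescent replicate 3.

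Of 10 tested targets of the MLX arm, 6 fell, 3 rose and 1 was not called, beside 34.1% lower and 36.2% higher over all tested genes. Their median log2 fold change was -0.57, and *Pklr* had too few counts for a test. *Txnip*, an inhibitor of glucose uptake and the best known target of MONDOA, went from 126 ± 5.24 to 231 ± 3.87 CPM (log2 fold change 0.87, SE 0.06, adjusted p = 4e-06). Its paralog in the arrestin family *Arrdc4* went from 11.1 ± 0.66 to 37.5 ± 3.07 CPM (log2 fold change 1.76, adjusted p = 1.12e-06). The third that rose was *Fgf21*, a hormone gene, at 0.437 ± 0.07 and 0.894 ± 0.23 CPM (adjusted p = 0.00734), named after its values had been seen. *Elovl6*, an enzyme of fatty acid elongation, went from 70.8 ± 2.75 to 27.5 ± 1.1 CPM (log2 fold change -1.36, adjusted p = 6.09e-07). The lists were written with earlier results of these data known, and their counts are descriptions of single-gene tests.

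**Figure D5:**
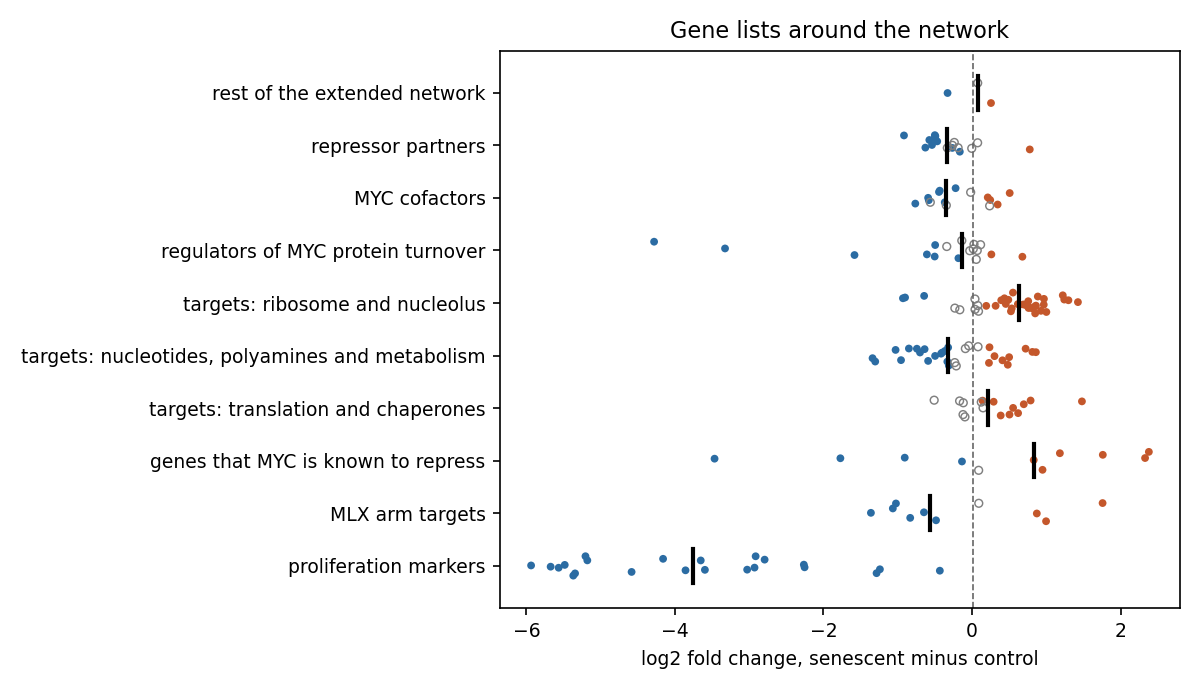
Log2 fold change, senescent minus control, of each tested gene in 10 lists around the network. Filled points were called (orange higher, blue lower), open points were not, black bars are list medians and the dashed line is the median of all tested genes. Medians run from -3.75 for proliferation markers to 0.83 for genes that MYC is known to repress.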

How the data were processed

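The authors aligned the reads by STAR (MAPRSeq pipeline, build mm10), assigned them to genes with Subread, and deposited raw counts per gene with exon lengths, which are used here without change. Strand setting and treatment of reads with several positions are not given in the sources used here. Genes were filtered with filterByExpr, scaled by TMM and tested by the quasi-likelihood method of edgeR 4.0.16 in R 4.3.3 (robust, group as the only term, two-sided, Benjamini-Hochberg adjustment). The fit was tested on simulated data. Total counts were 50288454 to 82229553 per library, and a count of 0 allows 3 counts, or 0.0355 to 0.0613 CPM, counting error only. The labels give no batch or date. For 1 gene, an exact permutation test of 3 against 3 cannot go below p = 0.1.

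All 10 members and all of the extended network are named. From each other list around the network the 3 genes of smallest p are named, except that the proliferation markers give *Mki67* alone. Some other listed genes are named too, most of them after their values had been seen, as stated with them. Genes that overlap *Mlx*, *Mxd3* and *Mxd4* are named with them. The annotation also places *Gm47218* over *Max*, *Gm44292* over *Mxd1*, and *AC133451.2* and *Gm10197* over *Mxi1*. The members and lists were chosen with earlier results of these data known. Alternatives were RLE scaling, library size alone, 2 other filters, DESeq2 1.42.0, a replicate block, each library left out, a fold limit and other exon lengths.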

Additional observations from a re-analysis of the deposited data

How the results depend on the processing

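No member's fold change reversed under any alternative. *Mycn* was called in none of the 10 that tested it, *Mnt* lost its call in 2, and *Mxd3* was not tested with at least 10 counts in every library. With an unadjusted p under 0.05 and a fold over 2, 5300 genes were called, 3134 higher and 2166 lower. The 3134 and 2166 genes were 17.8% and 12.3% of all tested genes. Under that limit 1 of the 10 members was higher and 2 were lower. Among 3 genes of the extended network, 17 repressor partners and 15 cofactors, 0 passed in either direction. Of 17 turnover regulators 0 were higher and 3 lower, of 38 ribosome targets 5 and 0, and of 30 metabolism targets 0 and 3. Of 16 translation genes 1 was higher, of 11 MYC-repressed genes 4 were higher and 2 lower, and of 10 tested MLX targets 1 and 3. Fewer genes pass because the limit on fold is added. Replicate numbers did not pair the samples (correlations of same-numbered deviations -0.145, 0.135 and -0.12); with the replicate block 11624 genes were called in place of 12365, and 0 genes of the extended network were higher. Without a filter, and with DESeq2, 1 translation gene was called lower. Leaving out 1 library gave 0 to 1 higher genes in the extended network, 1 to 5 higher turnover regulators and 0 to 1 lower translation genes. Scaling by library size alone moved the median of all genes to 0.0862 and the calls to 6929 higher and 5370 lower, with *Max* at 0.87, *Mxi1* at -0.61 and *Mlx* at 0.51, and *Mxi1* was at -0.64 with at least 10 counts in every library. The cause was not tested. By level per kb, the mean M21 transcript length left 7 members at their rank in control and 8 in senescent MAFs, and the union of M21 exons, added after seeing the data, 8 and 6.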
